A study of Mus musculus with 15 samples.

Results

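The suppressor of cytokine signaling (SOCS) family was followed in WEHI-164 tumors over a week from the start of poly(I:C) treatment. WEHI-164 is a mouse fibrosarcoma line, and the tumors grew under the skin of wild-type female BALB/c mice. The family was taken by name as Socs1 to Socs7 and Cish. All 8 genes were found among the 32544 entries of the deposited table, and 8 of 8 were among the 15494 genes that passed the filter on low counts. Day 0 tumors were untreated. Tumors taken at day 1, 3, 5 or 7 had received poly(I:C), a synthetic double-stranded RNA, by injection into the tumor, with 3 tumors on each of the 5 days. The sample labels give 1 µg in 25 µL every day for a planned 6 doses, whereas supplementary text names a larger amount, so the dose is uncertain. Harvest days were counted from the first dose, so a planned 6 daily doses would have ended before day 7. No tumor injected with vehicle was analysed here, so poly(I:C), repeated injection and elapsed time cannot be told apart. The labels do not say which mouse a tumor came from. The p-values therefore measure the spread between these tumors.

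SOCS proteins are feedback inhibitors of cytokine signaling. Cytokine receptors activate JAK kinases, which phosphorylate STAT transcription factors, and STATs switch on genes that include some of the SOCS genes themselves. Each SOCS protein carries an SH2 domain that binds phosphorylated tyrosine and a SOCS box that recruits elongins and a cullin-based ubiquitin ligase. SOCS1, which restrains interferon receptors, and SOCS3, which restrains receptors that use gp130, also block JAK kinase activity directly. CISH and SOCS2 are classical targets of STAT5 and act on growth hormone, prolactin and interleukin-2 family signaling. SOCS4 to SOCS7 have a longer amino-terminal region and have been tied mainly to receptor tyrosine kinases and insulin signaling.

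The libraries held 23.7 to 31.9 mega-counts. Same-day tumors were not repeats of a library, since their counts differed beyond sampling error (chi-square over its degrees of freedom, 9.88 to 287). The tumor labelled day 3 replicate 1 stood apart from the rest. The first principal component, with 57.4% of the variance, put its score at 144 and all remaining scores between -77.0 and 45.1. Its summed skeletal muscle markers reached 3345 CPM (counts per mega-count of a TMM-adjusted library size), against 61.4 and 164 in the other day 3 tumors. Its summed fibroblast and mesenchymal markers reached 32620 CPM against 9847 and 9975. The differences of members printed here that involve day 3, and the counts over pathway lists, are given with and without this tumor. Named pathway genes are given by their levels or with all tumors in the fit. These mesenchymal markers summed to at least 8448 CPM in every tumor, which is the lineage of a fibrosarcoma.

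Promoter sequence was available for 4 of the 8 genes, Socs1, Socs3, Socs4 and Cish. Each RefSeq window on GRCm38.p6 held 250 bases before the start site and 50 after it. Both strands were searched for TTCNNNGAA, the spaced palindrome that STAT dimers recognise, and for GAAANNGAA, the core shared by interferon response elements. The first was found in 8.3% and the second in 8.56% of all 32851 windows. A match is a string of letters and not evidence of binding. The stretches that follow are shown because Socs1, Socs3 and Cish ran together across tumors, and capitals mark the matches.
Socs1, chr16:10785537-10785786, minus strand: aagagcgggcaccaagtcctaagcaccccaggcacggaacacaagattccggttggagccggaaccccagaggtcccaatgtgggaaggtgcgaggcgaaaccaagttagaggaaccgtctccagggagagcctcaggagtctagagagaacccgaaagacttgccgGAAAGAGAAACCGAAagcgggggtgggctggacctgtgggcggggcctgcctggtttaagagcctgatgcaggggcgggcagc
Socs3, chr11:117969367-117969616, minus strand: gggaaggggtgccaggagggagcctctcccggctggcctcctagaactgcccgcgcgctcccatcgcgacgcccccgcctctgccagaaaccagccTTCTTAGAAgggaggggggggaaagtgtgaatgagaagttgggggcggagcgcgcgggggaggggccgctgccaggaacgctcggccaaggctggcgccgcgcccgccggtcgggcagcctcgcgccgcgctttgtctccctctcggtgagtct
Cish, chr9:107296658-107296687, plus strand: tTTCCTGGAAagTTCTTGGAAatctgtcaa
In Socs1, a pair of GAAANNGAA matches overlapped, from -83 to -75 and from -77 to -69 relative to the start site. Socs3 held a single TTCNNNGAA match from -154 to -146. Cish held a pair of TTCNNNGAA matches just past its start, from 1 to 9 and from 12 to 20. The Socs4 window held neither string.

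Levels of different genes were compared as CPM per kilobase of annotated exon. Socs3 was the most abundant family transcript on every day, at 36.6 ± 1.53 CPM per kilobase on day 0 (mean ± SD, n = 3). Socs5 came next at 19.2 ± 1.91. Socs4 followed at 9.69 ± 0.194, then Socs7 at 7.63 ± 1.11, Socs1 at 6.18 ± 0.251 and Socs6 at 5.51 ± 0.232. Cish, at 0.976 ± 0.261, and Socs2, at 0.714 ± 0.0936, were the least abundant. On day 0 the ranges of these last neighbors overlapped, from 0.708 to 1.23 for Cish and from 0.634 to 0.817 for Socs2. All other neighbors were separated on day 0, with Socs7 from 6.83 to 8.90, Socs1 from 6.02 to 6.47 and Socs6 from 5.29 to 5.75. On day 5 Socs1 averaged 10.3 ± 4.40 CPM per kilobase, behind Socs3 and Socs5, and its range of 5.50 to 14.1 overlapped those of Socs4, Socs7 and Socs6. The order depends on the length used, because Socs6 moved from rank 6 to rank 3 on day 0 when only its longest transcript was counted.

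**Figure D1:**
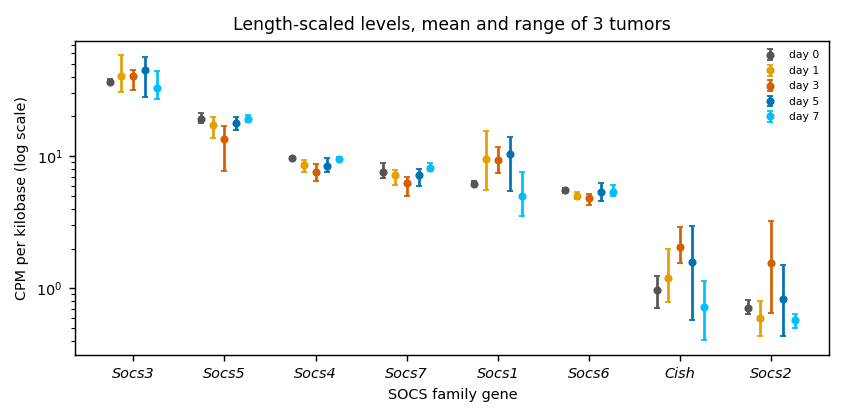
Length-scaled level of each SOCS gene on each harvest day, in CPM per kilobase of exon on a log axis. Points are means and bars run from the lowest to the highest of 3 tumors. Socs3 was highest and Socs2 lowest on every day, and the bars of Socs1 and Cish were wider on every treated day than on day 0.

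Socs1 lies at chr16:10782240-10785536 on the minus strand (ENSMUSG00000038037.5; all gene coordinates are those of GENCODE M21 on GRCm38). Its day 0 levels were 17.5, 17.6 and 18.8 CPM in replicates 1, 2 and 3. On day 1 they were 16.3, 21.7 and 44.8 CPM, and on day 3 they were 21.6, 33.9 and 26.9 CPM. All day 3 tumors therefore lay above all day 0 tumors, while day 1 overlapped day 0 through a single low tumor. The day 5 levels were 41.0, 33.1 and 16.0 CPM, and those of day 7 were 10.3, 22.2 and 11.4 CPM. Day 5 held 2 tumors above the day 0 range and 1 below it, and day 7 the reverse. The spread grew from an SD of 0.731 CPM on day 0 to 15.2 CPM on day 1 and 12.8 CPM on day 5. Against day 0, the log2 fold changes of days 1, 3, 5 and 7 were 0.62, 0.61, 0.74 and -0.30, each with an SE of 0.41. The p-values from edgeR's quasi-likelihood test, adjusted by Benjamini-Hochberg over all genes tested, were 1.00, 0.298, 0.859 and 1. Day 7 against day 3 differed by a log2 fold change of -0.91 (SE 0.41, edgeR adjusted p = 0.138). These day 3 comparisons gave 0.76 and -1.05 without day 3 replicate 1. Without day 1 replicate 3, the highest tumor, the day 1 log2 fold change was 0.082.

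Socs3 lies at chr11:117966079-117970047 on the minus strand (ENSMUSG00000053113.3). It measured 111, 104 and 103 CPM on day 0 and 89.1, 90.6 and 169 CPM on day 1. On day 3 it measured 91.1, 131 and 131 CPM, on day 5 it measured 164, 146 and 81.5 CPM, and on day 7 it measured 79.1, 128 and 78.8 CPM. Every treated day had tumors on both sides of the narrow day 0 range. The day 3 log2 fold change was 0.15 (SE 0.30, edgeR adjusted p = 0.728), with a 95% interval that ran from -0.50 to 0.80. It was 0.31 without day 3 replicate 1. Of the variance of Socs3 on the log2 scale, 15.6% lay between days, the smallest share in the family, against a median of 38.2% over all genes tested.

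Cish lies at chr9:107296026-107302784 on the plus strand (ENSMUSG00000032578.7). Its levels were 7.89, 4.54 and 6.37 CPM on day 0 and 18.7, 10.8 and 9.96 CPM on day 3, so that every day 3 tumor lay above every day 0 tumor. On day 1 they were 5.48, 5.03 and 12.7 CPM. The day 5 tumors spanned 3.70 to 18.9 CPM, with 7.97 CPM in the remaining tumor, and the day 7 tumors held 4.07, 7.34 and 2.59 CPM. All day 7 tumors lay below all day 3 tumors. The day 3 log2 fold change was 1.07 (SE 0.57), a fold of 2.09 (edgeR adjusted p = 0.206). Day 7 was lower than day 3 by a log2 fold change of -1.49 (SE 0.57, edgeR adjusted p = 0.103). Without day 3 replicate 1 these log2 fold changes were 0.73 and -1.14. Cish varied most in the family, with an SD of 0.83 on the log2 scale, above that of 88.3% of genes.

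Socs2 lies at chr10:95385362-95417180 on the minus strand (ENSMUSG00000020027.18). It measured 7.79, 6.59 and 6.05 CPM on day 0, 4.11, 5.35 and 7.68 CPM on day 1 and 30.8, 7.61 and 6.15 CPM on day 3. The day 5 levels were 14.3, 4.16 and 5.42 CPM, and the day 7 levels were 4.80, 6.12 and 5.39 CPM. A single tumor, day 3 replicate 1, carried the day 3 mean, and the other day 3 tumors lay inside the day 0 range. The day 3 log2 fold change of 1.12 (SE 0.57, edgeR adjusted p = 0.193) became 0.018 without that tumor. The day 7 against day 3 difference likewise went from -1.45 (SE 0.58, edgeR adjusted p = 0.109) to -0.33.

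**Figure D2:**
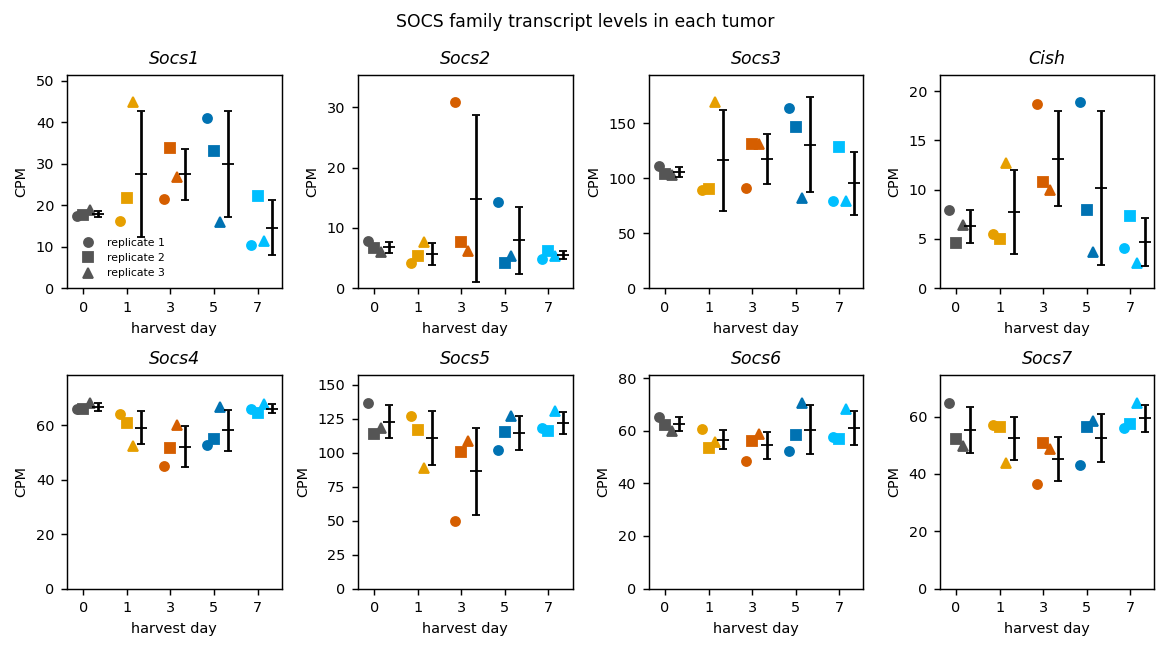
Level of each SOCS gene in each of the 15 tumors, in TMM-scaled CPM on a linear axis from 0. Symbols are replicates, and the black mark and bar beside them are the mean and SD of 3 tumors. Socs1 and Cish were above the day 0 range in every day 3 tumor, Socs2 stood at 30.8 CPM in day 3 replicate 1, and Socs4 to Socs7 were lowest in that same tumor.

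The 4 genes that encode SOCS proteins with long amino-terminal regions all had lower means on day 3 than on day 0. Socs4 lies at chr14:47276931-47296102 on the plus strand (ENSMUSG00000048379.9), and its product has been linked to the epidermal growth factor receptor. Its levels were 65.9, 65.9 and 68.2 CPM on day 0, 64.0, 60.7 and 52.2 CPM on day 1 and 44.9, 51.4 and 59.9 CPM on day 3. On day 5 they were 52.6, 54.9 and 66.7 CPM, and on day 7 they were 66.0, 64.3 and 67.8 CPM. Every tumor of days 1 and 3 lay below every day 0 tumor, and every day 7 tumor lay above every day 3 tumor. The day 3 log2 fold change was -0.36 (SE 0.12), a fold of 0.782, with an edgeR adjusted p of 0.115. From day 3 to day 7 the difference was 0.34 (SE 0.12, edgeR adjusted p = 0.0900). Without day 3 replicate 1 the log2 fold changes were -0.26 and 0.25. Of the variance of Socs4, 57.4% lay between days, the largest share in the family.

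Socs5 lies at chr17:87107679-87137839 on the plus strand (ENSMUSG00000037104.9), and its product has been linked to the epidermal growth factor and interleukin-4 receptors. It measured 137, 114 and 118 CPM on day 0 and 49.5, 101 and 109 CPM on day 3, again without overlap. Day 1 held 127, 117 and 88.6 CPM, day 5 held 102, 116 and 127 CPM, and day 7 held 118, 116 and 131 CPM. The day 3 difference was -0.51 (SE 0.23, edgeR adjusted p = 0.165), and it was -0.23 without day 3 replicate 1. The day 7 against day 3 difference was 0.50 (SE 0.23, edgeR adjusted p = 0.148), and 0.22 without that tumor.

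Socs6, which binds the KIT receptor, and Socs7, which binds the adaptor NCK, had the smallest day 3 differences among these genes. Socs6 lies on chromosome 18 (88665224 to 88927481, minus strand, ENSMUSG00000056153.15). It measured 65.3, 62.3 and 60.0 CPM on day 0 and 48.6, 56.0 and 58.7 CPM on day 3, with every day 3 tumor below every day 0 tumor. Its levels on the remaining days ran from 52.2 to 70.7 CPM. Its day 3 log2 fold change was -0.20 (SE 0.12, edgeR adjusted p = 0.251), and -0.12 without day 3 replicate 1. Its SD over all tumors, 0.14 on the log2 scale, was the smallest in the family. Socs7 lies at chr11:97362551-97398542 on the plus strand (ENSMUSG00000038485.5). It measured 64.6, 52.1 and 49.6 CPM on day 0, 36.5, 50.9 and 48.6 CPM on day 3 and 56.2, 57.5 and 64.9 CPM on day 7. Its day 3 tumors overlapped day 0, but all lay below day 7. The log2 fold change was -0.29 (SE 0.16, edgeR adjusted p = 0.230) for day 3 against day 0 and 0.39 (SE 0.16, edgeR adjusted p = 0.118) for day 7 against day 3. Both shrank without day 3 replicate 1, to -0.15 and 0.27.

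The comparisons with day 0 asked which family members changed after treatment began. EdgeR called 0 of 8 at an adjusted p under 0.05 on day 1, 3, 5 or 7 against day 0, for day 7 against day 3 and in the joint test of the treated days, and 0% of all genes were called in each. DESeq2, run on the same genes, called Socs4 for day 3 against day 0 (log2 fold change -0.34, adjusted p = 0.0409), where 12.9% of all genes were called. Over the alternatives tried, the adjusted p of that difference ran from 0.0409 to 0.379. For day 7 against day 3, DESeq2 called Socs4 (0.33, adjusted p = 0.0327) and Cish (-1.51, adjusted p = 0.0434), where 21% of all genes were called. The adjusted p ran from 0.0327 to 0.315 for Socs4 and from 0.0434 to 0.351 for Cish over the alternatives. A DESeq2 fit without day 3 replicate 1 was added after the data were seen. It called 0 of 8 for day 3 against day 0. For day 7 against day 3 it called 0 of the 5 members with an adjusted p, Socs4 among them, and gave none for Socs1, Socs2 and Cish, whose log2 fold changes were -1.05, -0.33 and -1.14. DESeq2 called 0 of 8 for day 1 (0.258% of all genes called), day 5 (0.071%), day 7 (0.0323%) and the joint test (7.59%).

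At an unadjusted p under 0.05, edgeR passed 2 of 8 as lower on day 3, Socs4 and Socs5, beside 11.7% of all genes, and 0 of 8 as higher, beside 18.3%. For day 7 against day 3, Socs4 and Socs7 passed as higher, beside 12.9% of all genes, and Socs1, Socs2 and Cish passed as lower, beside 22.6%. Without day 3 replicate 1, only Socs4 passed for day 3, beside 13.1% of all genes in either direction. Only Socs1 and Socs4 then passed for day 7 against day 3, beside 15.7%. With all tumors, no member passed on day 1, where the background was 2.18% higher and 0.981% lower. None passed on day 5 (1.41% higher, 3.39% lower), on day 7 (1.05% higher, 1.02% lower) or in the joint test (16.2%). The lowest adjusted p of the family in the joint edgeR test was that of Socs4, 0.319.

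Non-overlap of tumors was counted in the same way. All day 3 tumors lay above all day 0 tumors for 2 of 8 members, Socs1 and Cish, against 19.4% of all genes. They lay below for 3 of 8, Socs4, Socs5 and Socs6, against 19% of all genes. On day 1, 0 of 8 lay above (5.76% of all genes) and Socs4 alone lay below (6.61%). On day 5, 0 of 8 lay above (6.89%) or below (10.8%), and on day 7, 0 of 8 lay above (5.02%) or below (6.26%). Between day 3 and day 7, Socs4, Socs5 and Socs7 lay above on day 7, against 14.6% of all genes, and Socs2 and Cish lay below, against 18.4%. The comparisons with day 0 share the day 0 tumors. Across the family, the median log2 fold changes of days 1, 3, 5 and 7 were -0.11, -0.026, 0.087 and -0.094, and 3, 4, 4 and 1 of the 8 members were above day 0. Of all genes, 49.9%, 48%, 50.3% and 44.4% were above day 0. The median over all genes on day 3 was -0.025.

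**Figure D3:**
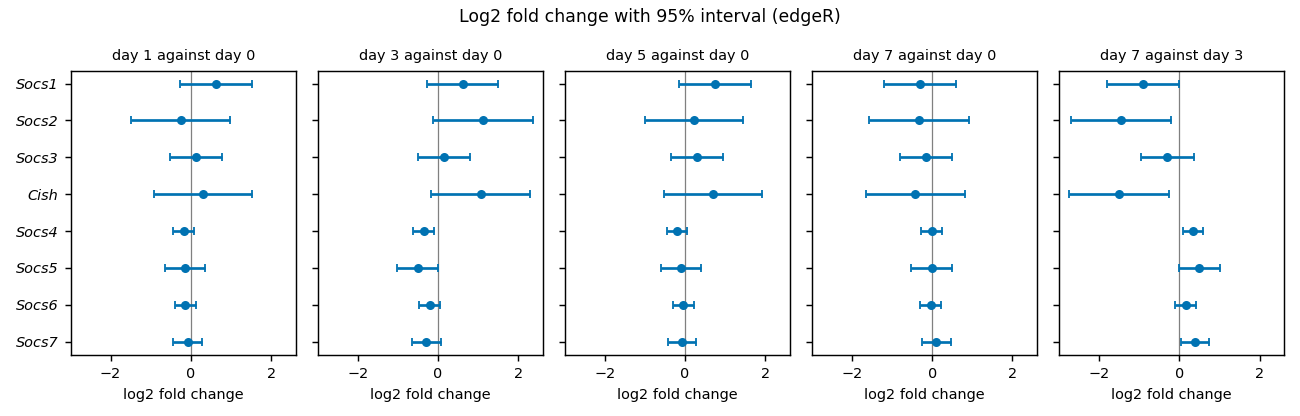
Log2 fold change of each SOCS gene in the 5 comparisons between days, with a 95% interval derived from the edgeR F statistic. Intervals for Socs2 and Cish were the widest and those for Socs4 and Socs6 the narrowest, and for day 3 against day 0 the intervals of Socs4 and Socs5 lay below 0.

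Across the 15 tumors the family fell into a pair of sets, a division made after the values were seen. All 6 pairs within Socs1, Socs2, Socs3 and Cish were positively correlated on the log2 scale, with Spearman's rho from 0.45 to 0.91. All 6 pairs within Socs4 to Socs7 were positive as well, from 0.63 to 0.85. All 16 pairs between the sets were negative, from -0.83 to -0.38. The signs were the same without day 3 replicate 1, with ranges of 0.53 to 0.94, 0.55 to 0.82 and -0.87 to -0.24. These are descriptions over 15 tumors that share harvest days, cell mixtures and a common scaling. The share of all genes with a rho at least as extreme, taken with the first-named gene of a pair, varied widely. Within the first set it ran from 0.316% (Socs1 and Socs3) to 27.7% (Socs1 and Socs2). Within the second it ran from 3.18% (Socs5 and Socs7) to 18.6% (Socs4 and Socs7). Between the sets it ran from 4.6% (Socs1 and Socs5) to 26.6% (Socs2 and Socs6). How often other genes divide in this way was not tested.

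The closest pair was Socs1 and Socs3, with rho = 0.91 and Pearson's r = 0.91, and r = 0.88 without the 2 tumors farthest from the Socs1 median. Of all genes tested, 0.316% had a rho with Socs1 at least as extreme. Over the 28 pairs of the family this share ran up to 27.7%, for Socs1 and Socs2. After the day means were removed, r was 0.96, so tumors of the same day that were high in Socs1 were also high in Socs3. Day 1 replicate 3 had the highest level of both, 44.8 CPM of Socs1 and 169 CPM of Socs3. Cish tracked Socs1 (rho = 0.83, r = 0.79) and Socs3 (rho = 0.81, r = 0.71). Socs2 was the loosest member of its set, with rho = 0.45 to Socs1 and a within-day r of 0.21. Among the negative pairs, rho was lowest for Socs4 and Cish (rho = -0.83, r = -0.84, within-day r = -0.78), and r was lowest for Socs2 and Socs5 (rho = -0.57, r = -0.85, within-day r = -0.85). Leaving out the 2 tumors farthest from the Socs4 median gave r = -0.80 for Socs4 and Cish. Leaving out the 2 farthest from the Socs2 median gave r = -0.41 for Socs2 and Socs5, so the latter rested on those tumors.

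**Figure D4:**
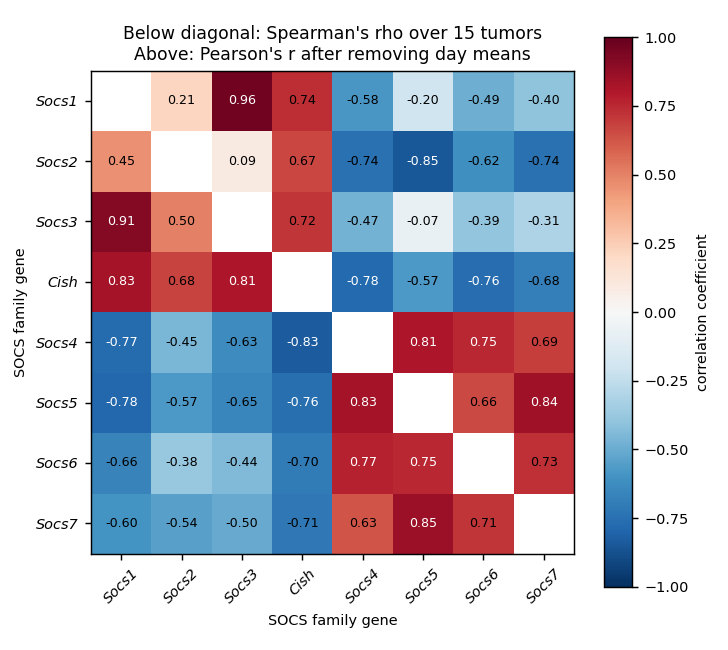
Correlation between SOCS genes over 15 tumors, with Spearman's rho below the diagonal and Pearson's r of log2 CPM after removal of the day means above it. Red marks positive and blue negative coefficients, and a positive block of Socs1, Socs2, Socs3 and Cish faces a positive block of Socs4 to Socs7.

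The genes with the most similar profile to each member were sought among all genes tested. For Socs1 these were Irf1 (rho = 0.98), an interferon-responsive transcription factor, Batf2 (rho = 0.97), another interferon-induced transcription factor, and Sod2 (rho = 0.97), the mitochondrial superoxide dismutase. Irf1 measured 328, 355 and 333 CPM on day 0 and 374, 507 and 462 CPM on day 3, and as for Socs1 its mean was lowest on day 7, at 243, 387 and 224 CPM. For Cish they were Rab32 (rho = 0.98), a small GTPase, Cd22 (rho = 0.98), a lectin of B cells, and Cmklr1 (rho = 0.97), the chemerin receptor. Socs3 was most like Tagln2 (rho = 0.93), Cdc42ep2 (rho = 0.92) and Fst (rho = 0.92), the last encoding follistatin. Socs2 was most like Zfp704 (rho = 0.93), Hist3h2a (rho = 0.90) and Ogdhl (rho = 0.89).

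In the other set, Socs5 was closest to Smarcad1 (rho = 0.98), a chromatin remodeler, Ammecr1 (rho = 0.97) and Elovl4 (rho = 0.96), a fatty acid elongase. Socs4 was closest to Tfb2m (rho = 0.97), a mitochondrial transcription factor, Myef2 (rho = 0.96) and B230219D22Rik (rho = 0.96). Socs6 was closest to Zbtb9 (rho = 0.92), Ythdf3 (rho = 0.90) and Tmem69 (rho = 0.90), and Socs7 to Camkk1 (rho = 0.97), Aoc2 (rho = 0.95) and Zbed4 (rho = 0.95). All were ranked over the 15 tumors.

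Marker levels of other cells moved with these genes. In bulk tumors, more cells of a type and more RNA per cell cannot be told apart. Summed NK and cytotoxic cell markers ran from 96.3 to 139 CPM on day 0 and from 250 to 412 CPM on day 3, and 8 of 8 had a higher mean on day 3. T cell markers ran from 36.4 to 51.0 CPM and from 106 to 377 CPM (10 of 10 higher). Macrophage markers ran from 1596 to 1755 CPM and from 2686 to 6742 CPM (8 of 9 higher). Neutrophil markers ran from 65.7 to 100.0 CPM and from 100.5 to 246 CPM (7 of 8 higher). Of their defining genes, Ly6g never exceeded 5 counts and Retnlg never exceeded 44, and each was at 0 in 3 tumors. Without day 3 replicate 1, 0 of 7 tested neutrophil markers were higher at an unadjusted edgeR p under 0.05, beside 6.52% of all genes. Day 3 replicate 1 held the highest T cell, macrophage and neutrophil sums of day 3. The other day 3 tumors reached at most 114, 3140 and 128 CPM of these markers.

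Cish followed the neutrophil sum most closely (rho = 0.98, r = 0.97, and 0.97 for both without day 3 replicate 1). It was also close to the NK and cytotoxic sum (rho = 0.92) and the T cell sum (rho = 0.90). Socs1 followed the NK and cytotoxic sum (rho = 0.89, r = 0.88, and 0.97 and 0.95 without that tumor), and its rho with the neutrophil sum was 0.80. Socs3 had its highest rho with the neutrophil sum as well (rho = 0.80, r = 0.71, and 0.95 and 0.94 without that tumor). The NK and cytotoxic sum (rho = 0.775) and the T cell sum (rho = 0.771) were little lower. The share of all genes with coefficients this high was not computed, so a link to a single cell type was not tested. Socs2 had its highest rho with the neutrophil sum (rho = 0.79, r = 0.78, and 0.75 for both without that tumor) and its highest r with the fibroblast and mesenchymal sum (rho = 0.73, r = 0.92, and 0.66 and 0.75 without that tumor). Socs4 ran against the NK and cytotoxic sum (rho = -0.85, r = -0.84, and -0.82 and -0.84 without that tumor). Socs5 did so as well (rho = -0.89, r = -0.66, and -0.88 and -0.77 without that tumor). Its r was lower with the B cell (-0.93) and fibroblast and mesenchymal (-0.92) sums, and these were -0.73 and -0.62 without that tumor. B cell markers summed to at most 3.04 CPM on day 0. On day 3 they summed to 36.0 CPM in day 3 replicate 1 and to 6.69 and 5.91 CPM in the other tumors. Adipocyte markers reached 309 CPM in day 3 replicate 1 against at most 52.4 CPM in the other day 3 tumors. Erythroid markers, highest in a day 7 tumor at 221 CPM, had rho between -0.26 and 0.25 with every member. The part of these cells in the SOCS levels was not tested.

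**Figure D5:**
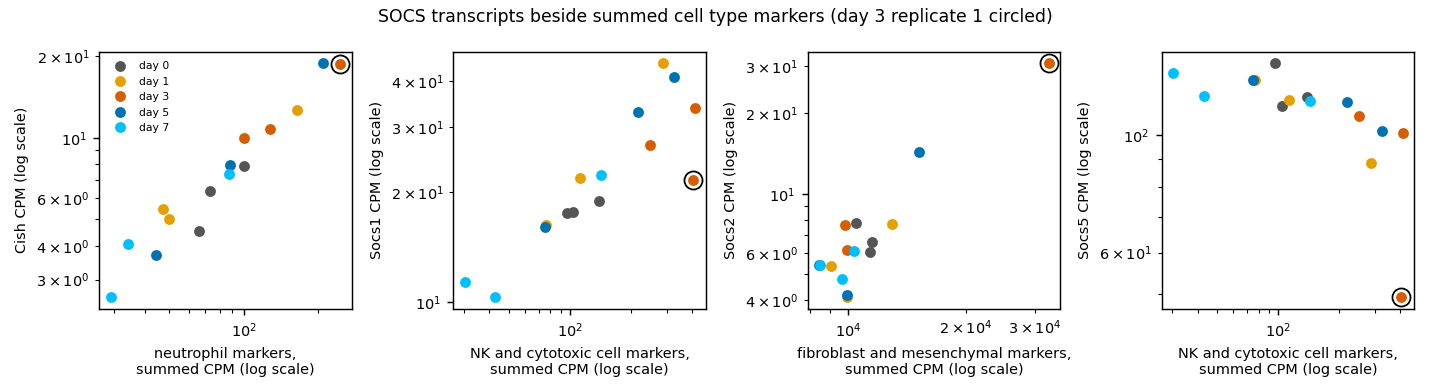
Level of a SOCS gene against the summed CPM of a marker list in each of 15 tumors, both on log axes, for Cish with neutrophil, Socs1 with NK and cytotoxic, Socs2 with fibroblast and mesenchymal, and Socs5 with NK and cytotoxic markers. Colors are harvest days and the circled point is day 3 replicate 1, which holds the highest Socs2 and the lowest Socs5.

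The rest of the pathway was read in order of signal flow, from lists chosen with earlier results known, and no list gene was called at an adjusted p by edgeR. Of 17 ligands of JAK-STAT receptors, 12 were tested, and 4 were higher on day 3 at an unadjusted p under 0.05 and 0 lower, beside 18.3% and 11.7% of all genes. Leaving out day 3 replicate 1 left 1 of the 12 higher and 0 lower, beside 6.52% and 6.56% of all genes. Ifng, which encodes interferon gamma, measured 1.65, 2.05 and 2.72 CPM on day 0 and 5.56, 8.31 and 5.29 CPM on day 3 (log2 fold change 1.58, SE 0.72, edgeR adjusted p = 0.163). Il6, a ligand that signals through gp130, measured 0.438, 1.12 and 1.20 CPM on day 0 and 0.282, 1.25 and 0.623 CPM on day 3, with overlapping days. Il10 had a log2 fold change of 2.44 (SE 0.82, edgeR adjusted p = 0.115).

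Of 24 receptors, all tested, 13 were higher and 0 lower on day 3 at an unadjusted p under 0.05, again beside 18.3% and 11.7% of all genes, with a median log2 fold change of 0.88. Without day 3 replicate 1, 2 were higher and 0 lower, where 6.52% of all genes were higher and 6.56% lower, and the median was 0.57. Il10ra, the interleukin-10 receptor chain, measured 33.8, 55.5 and 50.4 CPM on day 0 and 264, 95.5 and 98.2 CPM on day 3. Of the 11 JAK and STAT genes, 7 were higher and 0 lower, with a median of 0.63, and without that tumor 1 was higher and 0 lower, with a median of 0.31. The log2 fold change was 0.96 for Stat2, 0.32 for Stat3, 0.14 for Stat5a and -0.20 for Jak2, and of these only Stat2 had an unadjusted p under 0.05 (edgeR adjusted p = 0.115).

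Among 12 other inhibitors of JAK-STAT signaling, 4 were higher and 1 lower on day 3 at an unadjusted p under 0.05, with a median of 0.030. Without day 3 replicate 1, 3 were higher and 0 lower. The counts in this paragraph stand beside 18.3% higher and 11.7% lower of all genes, and 6.52% and 6.56% without that tumor. Usp18, which silences the type I interferon receptor, measured 23.4, 32.0 and 26.2 CPM on day 0, 61.8, 48.7 and 157 CPM on day 1 and 42.8, 99.6 and 60.0 CPM on day 3. Its tumors of days 1 and 3 all lay above day 0, unlike Socs1 on day 1. Of 8 partners of the SOCS box in the ubiquitin ligase, 1 was higher and 1 lower, and without that tumor 0 were higher or lower. Cul5, the cullin that the SOCS box recruits, was the lower, at 70.7, 67.2 and 63.6 CPM on day 0 and 39.9, 57.6 and 59.6 CPM on day 3 (log2 fold change -0.36, SE 0.16, edgeR adjusted p = 0.162). Elob, its elongin partner, had a log2 fold change of -0.11. Of 16 other SOCS box proteins, 3 were higher and 1 lower, and without that tumor 1 was higher and 0 lower. Asb2 measured 20.7 CPM in day 3 replicate 1 against 2.10 and 1.75 CPM in the other day 3 tumors.

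Target genes of STAT3 and STAT5, which SOCS proteins restrain, were counted in the same way on day 3. Of 14 STAT3 target genes, 0 were higher and 2 lower at an unadjusted p under 0.05, with a median of -0.14, beside 18.3% and 11.7% of all genes. The counts were the same without day 3 replicate 1, beside 6.52% and 6.56% of all genes, and the median was 0.070. Il1r1 had a log2 fold change of -0.59 (SE 0.15, edgeR adjusted p = 0.115). Of 10 STAT5 target genes, 2 were higher and 0 lower, with a median of 0.34, and without that tumor 1 was higher and 0 lower. With all tumors, the shares of lower STAT3 targets and of higher STAT5 targets were near those of all genes. Pim1, a kinase gene that STAT5 induces, had a log2 fold change of 0.42 (SE 0.29, edgeR adjusted p = 0.307). Igf1 measured 83.7 CPM in day 3 replicate 1 against 9.63 and 6.11 CPM in the other day 3 tumors.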

How the data were processed

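The authors sequenced poly(A) RNA as single-end Illumina reads, estimated transcript abundance with kallisto on GRCm38 and deposited whole-number estimated counts for every gene in each of the 15 tumors. The transcript set and strandedness are not given in the sources used here. Kallisto divides shared reads among transcripts. The table's single entry named as a date, with at most 0.0268% of counts, was left out. Genes above 0.366 CPM in at least 3 tumors were kept. Levels are TMM-scaled CPM, or log2 CPM with a prior count of 2. A count of 3, the limit that a count of 0 allows, was 0.0972 to 0.125 CPM and reflects counting error alone, because no molecular identifiers marked single molecules.

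All 15 tumors were fitted together on harvest day with edgeR 4.0.16 (R 4.3.3, limma 3.58.1), two-sided, with Benjamini-Hochberg adjustment over all genes. The code was tested on simulated data. Alternatives were DESeq2 1.42.0, other scaling, no filter, only the days compared, a replicate block and leaving out each tumor. Members and lists were chosen with earlier results of these data known. Named genes were all 8 members, the 3 highest Spearman coefficients for each, the gene with the lowest joint p of each pathway list, and Stat3, Stat5a, Jak2, Ifng, Il6, Irf1, Pim1, Usp18 and Cul5. Some genes covered by this rule, and the list that rests on them, are not reported here. Promoters came from RefSeq (GRCm38.p6). For Socs3 and Cish the RefSeq start lies inside the GENCODE gene.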

Additional observations from a re-analysis of the deposited data

How the results depend on the processing

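No member's adjusted call held across the tools. DESeq2 called 1 member for day 3 against day 0 (Socs4) and 2 for day 7 against day 3 (Socs4 and Cish), where edgeR called 0, and it called 2003 and 3260 genes in all, where edgeR called 0. DESeq2 called 40, 11, 5 and 1176 genes for days 1, 5 and 7 and the joint test, where edgeR called 0. Without day 3 replicate 1, DESeq2 called 85 and 93 genes for the first pair of comparisons and 0 members. In that fit Socs1, Socs2 and Cish had no adjusted p for day 7 against day 3. Unadjusted, it passed 1, 2 and 1 members for day 3, day 7 against day 3 and the joint test. The shares of all genes passing were 14.3%, 17.3% and 12.1%. Leaving out 1 tumor at a time, edgeR called 0 to 1 members for day 7 against day 3, the call being Socs4 without day 3 replicate 3 (adjusted p = 0.0493, with 2104 genes called). The number at an unadjusted p under 0.05 ran from 1 to 3 for day 3, 0 to 2 for day 5, 1 to 6 for day 7 against day 3 and 0 to 3 in the joint test. The shares of all genes passing ran, in the same order, from 13.1% to 40.2%, 1.81% to 10%, 15.7% to 44% and 7.22% to 21.7%. With library totals alone, day 3 gave 1 (Socs4), beside 29.7% of all genes. With RLE size factors the joint test gave 1 (Socs4), beside 16.6%, and with DESeq2 it gave 2 (Socs2 and Socs4), beside 24.6%. With only the days compared, day 5 gave 1 (Socs1), beside 12.9%, and day 7 against day 3 gave 3, beside 18.6%. On that basis day 3 gave 3, beside 20.9%, with Socs1 and Cish higher, Socs4 lower and Socs5 no longer passing. Leaving out 1 tumor turned the sign of some differences, including that of Cish on day 5, a log2 fold change of 0.70 with all tumors. On day 1 the log2 fold change ran from -0.15 to 0.045 for Socs7, from -0.24 to 0.29 for Socs3 and from -0.25 to 0.53 for Cish. On day 5 it ran from -0.16 to 0.052 for Socs7, from -0.51 to 0.53 for Socs2, from -0.18 to 0.047 for Socs6 and from -0.10 to 1.10 for Cish. On day 7 it ran from -0.070 to 0.069 for Socs5, from -0.033 to 0.0048 for Socs4 and from -0.13 to 0.0088 for Socs6. The lowest Cish and Socs2 values on day 5 came without day 5 replicate 1, and the lowest Socs3 and Cish values on day 1 without day 1 replicate 3. In total, 860 of the recomputed fold changes kept their sign and, where an adjusted p was given, their side of the threshold. Another 16 turned sign and 4 passed the threshold only under the alternative. The causes were not tested beyond what each left-out tumor shows. Same-numbered tumors did not deviate together throughout. Of 30 same-number pairs, 9 correlated above 0.1 (range -0.62 to 0.51), and 4 of 15 tumors correlated best with their own number. Among those that did, replicate 3 of day 3 correlated at 0.49 with that of day 5 and 0.51 with that of day 7. With only 3 tumors centered on each day's mean, these values do not settle whether the numbers paired tumors. With the replicate number as a block, day 3 gave 1 member (Socs4) and day 7 against day 3 gave 3 (Socs4, Socs7 and Cish) at an unadjusted p under 0.05. The shares of all genes passing were 24.7% and 30.5%, and the block changed no adjusted call. Levels below about 10 CPM, those of Cish and Socs2, rest on the fewest counts.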
